A study of Mus musculus with 9 samples.

Results

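The mitochondrial ribosomal protein genes, the nuclear genes whose symbols start with Mrpl or Mrps followed by a number, were followed through 9 RNA-seq libraries of mouse mesenchymal stem cells. The symbol rule found 76 genes among the 23358 entries of the gene table, 47 named Mrpl and 29 named Mrps. All 76 were expressed highly enough to be among the 13240 genes tested, and the lowest count of any of them in a library was 192. The rule reads symbols alone, but the family was picked for description with earlier results of these libraries known, so its counts are given as a description and no test was made on the family as a whole.

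The cells were MSC obtained from the bone marrow of adult C57BL/6 mice, used between passages 4 and 10, kept in osteogenic medium until lysis, 4 days after the siRNA was added. Of the 3 groups of 3 cultures, siBcat received siRNA against beta-catenin, GSK126 received the non-targeting siRNA plus 5 µM GSK126, an inhibitor of the histone methyltransferase Ezh2, and siCTL received the non-targeting siRNA alone. Titles, source names and column names put siBcat without the inhibitor, while its treatment label also lists 5 µM GSK126, and the grouping here follows the titles. Every culture thus carried an siRNA and the osteogenic medium, and the series text calls the replicates biological. Libraries are named by group and replicate number, as siBcat 2. Summed counts per library were between 42324200 and 55898774. Ctnnb1, the beta-catenin gene, was at 19.3, 19.3 and 19.1 CPM (counts scaled to library size) in siBcat, against 854.4, 860.1 and 878.9 CPM in siCTL. Stromal markers summed to 24297 to 26380 CPM in siBcat, 34344 to 37254 CPM in GSK126 and 27155 to 32000 CPM in siCTL, with 1 of 11, Thy1, at 0 in all libraries. The 7 haematopoietic markers summed to at most 3.64 CPM in siBcat, 3.34 CPM in GSK126 and 3.01 CPM in siCTL, and 2 of them, Ptprc among them, were at 0 throughout. The 6 endothelial markers summed to at most 2.23, 2.26 and 2.03 CPM in siBcat, GSK126 and siCTL. Single markers changed within these sums. In siBcat, Lyz2 (0.391 CPM, against 0.0445 in siCTL, adjusted p = 0.00239) and Kdr (1.02 CPM, against 0.352, adjusted p = 0.00285) rose, and both calls held in all 9 leave-outs. Cd74 was called higher there, but not without siBcat 2 or 3 or siCTL 2 or 3 (adjusted p up to 0.106). Cd68 was called lower, but not without siBcat 1 or 3 or siCTL 3 (up to 0.154), and Vwf lower, but not without siBcat 1 or 2 or siCTL 2 or 3 (up to 0.114). Of the 10 stromal markers tested, 2 were higher in siBcat, Cd44 by 0.85 and Ly6a by 0.78 on the log2 scale. Lower there were 3, Cxcl12 (-0.65), Pdgfra (-0.29) and Col1a2 (-0.23). The call of Col1a2 ended without siBcat 2 or 3 or siCTL 1 or 2 (up to 0.0913). In GSK126, 2 were higher, Cxcl12 (1.09) and Ly6a (0.38), and 3 lower, Pdgfra (-0.59), Pdgfrb (-0.36) and Itgb1 (-0.19). Cxcl12 thus went in opposite directions in the treatments. The part of these markers in the results was not tested.

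Mitochondria keep their own ribosome, which translates the few messenger RNAs of the mitochondrial genome into core subunits of the respiratory chain and ATP synthase. Its RNAs come from mitochondrial DNA, whereas all of its proteins are encoded in the nucleus, made in the cytosol and imported. The small subunit reads the messenger RNA and the large subunit joins the amino acids; each is built from proteins with relatives in bacterial ribosomes and from proteins found only in mitochondria. Of the 76 genes, 49 encode large subunit proteins (30 with a bacterial relative and 19 without) and 26 encode small subunit proteins (16 with a relative and 10 without). Symbols and subunits do not always match: Mrps18a and Mrps30 encode proteins located in the large subunit, and the product of Mrps36 is a component of the 2-oxoglutarate dehydrogenase complex, outside the ribosome. The RNAs of the mitochondrial genome were not analysed here.

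Promoter windows were at hand for 67 of the genes, in 73 windows of 300 bases, from 250 before to 50 after a transcript start (RefSeq, GRCm38.p6). They were searched on both strands for motifs of 3 factors known to act on nuclear genes for mitochondrial proteins: the ETS core CCGGAAG bound by GABP, the palindromic motif of NRF-1, given by name, and the YY1 motif AAGATGGCG, whose first 3 letters can be the last of an ETS match. The ETS letters were present in 24 of the 73 windows (32.9%), against 8.86% of all 32851 windows of that length. An NRF-1 match was present in 12 (16.4%), against 4.60% of all windows, and the YY1 letters in 8 (11.0%), against 1.40%. At least 1 of the motifs was found in 39 windows (53.4%), against 13.6% of all windows. A match describes the letters in the window and was not tested as a binding site. The 250 bases before the start are printed below for the 7 genes with a window whose difference from siCTL, described further on, passed the threshold in a treatment with every single library left out in turn. They are written 5′ to 3′ on the strand of the gene, in lower case, with motif matches in capitals.
Mrps6: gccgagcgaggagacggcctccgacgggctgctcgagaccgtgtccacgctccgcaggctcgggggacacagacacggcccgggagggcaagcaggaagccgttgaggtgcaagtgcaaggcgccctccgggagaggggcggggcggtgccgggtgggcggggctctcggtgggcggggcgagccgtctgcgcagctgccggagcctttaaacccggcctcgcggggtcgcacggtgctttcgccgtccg
Mrps26: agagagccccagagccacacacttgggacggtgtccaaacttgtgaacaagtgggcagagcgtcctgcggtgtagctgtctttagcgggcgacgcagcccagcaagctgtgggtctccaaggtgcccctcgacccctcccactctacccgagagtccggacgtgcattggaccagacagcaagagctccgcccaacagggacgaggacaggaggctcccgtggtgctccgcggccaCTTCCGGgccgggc
Mrpl43: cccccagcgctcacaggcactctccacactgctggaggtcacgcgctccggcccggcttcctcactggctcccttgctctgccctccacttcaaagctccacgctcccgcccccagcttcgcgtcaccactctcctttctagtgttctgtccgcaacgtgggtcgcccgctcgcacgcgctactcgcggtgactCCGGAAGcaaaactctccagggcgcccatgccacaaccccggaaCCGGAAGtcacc
Mrpl17: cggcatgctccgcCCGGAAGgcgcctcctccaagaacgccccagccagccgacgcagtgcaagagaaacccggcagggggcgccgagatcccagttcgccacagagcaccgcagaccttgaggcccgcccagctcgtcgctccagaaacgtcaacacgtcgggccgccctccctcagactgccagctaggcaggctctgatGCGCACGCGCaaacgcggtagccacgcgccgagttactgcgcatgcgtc
Mrps2: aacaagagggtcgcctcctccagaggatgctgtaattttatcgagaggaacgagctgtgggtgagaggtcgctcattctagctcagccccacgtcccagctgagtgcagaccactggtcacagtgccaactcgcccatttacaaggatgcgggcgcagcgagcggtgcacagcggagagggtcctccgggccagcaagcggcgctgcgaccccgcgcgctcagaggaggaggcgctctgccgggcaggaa
Mrpl20: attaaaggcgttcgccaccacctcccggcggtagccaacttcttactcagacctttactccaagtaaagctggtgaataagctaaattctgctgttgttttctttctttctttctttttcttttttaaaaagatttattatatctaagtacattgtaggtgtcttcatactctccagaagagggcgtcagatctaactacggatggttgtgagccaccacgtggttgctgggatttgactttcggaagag
Mrpl45: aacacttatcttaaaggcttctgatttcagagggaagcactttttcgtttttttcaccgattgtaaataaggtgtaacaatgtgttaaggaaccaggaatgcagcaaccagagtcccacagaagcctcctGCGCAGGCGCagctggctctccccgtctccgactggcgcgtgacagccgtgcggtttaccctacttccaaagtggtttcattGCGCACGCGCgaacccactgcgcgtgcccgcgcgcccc
The windows lie at chr16:92058086-92058335 for Mrps6, chr2:130563507-130563756 for Mrps26, chr2:28467816-28468065 for Mrps2, chr4:155802628-155802877 for Mrpl20 and chr11:97315466-97315715 for Mrpl45, all on the plus strand, and at chr19:45006443-45006692 for Mrpl43 and chr7:105811088-105811337 for Mrpl17, on the minus strand. Capitals mark 1 ETS match in Mrps26, 2 ETS matches in Mrpl43, 1 ETS and 1 NRF-1 match in Mrpl17 and 2 NRF-1 matches in Mrpl45. These letters were not in the printed windows of Mrps6, Mrps2 and Mrpl20. The Mrpl20 window precedes a transcript start at 155802878, upstream of the gene start of 155803618 given with its values, so that sequence does not adjoin the gene start, as the other 6 windows do.

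Levels across the family, compared per kilobase of the coding length listed in the table, spanned a 27.8-fold range. The median gene stood at 22.3 CPM per kb over all libraries, against 8.45 CPM per kb for all genes tested, and 67 of the 76 lay above the median of all genes. The highest over all libraries was Mrpl33, a large subunit protein with a bacterial relative, at 115.2 ± 5.67 CPM per kb in siBcat, 104.7 ± 16.3 in GSK126 and 93.3 ± 3.46 in siCTL (SD, n = 3 each). Next came Mrpl52, which is specific to mitochondria, at 99.5 ± 14.9 CPM per kb in siBcat, 112.5 ± 21.5 in GSK126 and 76.8 ± 20.8 in siCTL. Mrpl33 was the higher of the pair in siBcat and siCTL and Mrpl52 in GSK126, and their SD intervals overlapped in each group. Mrpl54, Mrps21 and Mrpl30 followed, with means over all libraries of 69.4, 67.5 and 60.6 CPM per kb. Mrpl54 and Mrps21 changed places between groups, at 79.0 ± 6.91 and 67.7 ± 1.68 CPM per kb in siBcat, 76.3 ± 11.7 and 70.1 ± 8.47 in GSK126, and 53.0 ± 9.89 and 64.7 ± 3.56 in siCTL.

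At the other end of the order, Mrpl1 was at 3.59 ± 0.0405 CPM per kb in siBcat, 3.84 ± 0.206 in GSK126 and 3.83 ± 0.370 in siCTL. Mrps25 was at 4.00 ± 0.269 CPM per kb in siBcat, 3.92 ± 0.675 in GSK126 and 3.37 ± 0.0332 in siCTL, so that Mrpl1 was the lower of the pair in siBcat and Mrps25 in siCTL. Both have long listed transcripts, of 4170 and 6065 bases, and so do the next genes in the order, Mrpl19 and Mrpl35, with 4.50 and 6.38 CPM per kb over all libraries. Mrps22, at 6.88 CPM per kb, has a listed length of 1216 bases, close to the median of 1053 bases for the family. The length range was 407 to 6712 bases, and 69 of the 76 genes were shorter than the median gene tested, at 2851 bases. They lie on 17 chromosomes, with 10 genes on chromosome 11.

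**Figure D1:**
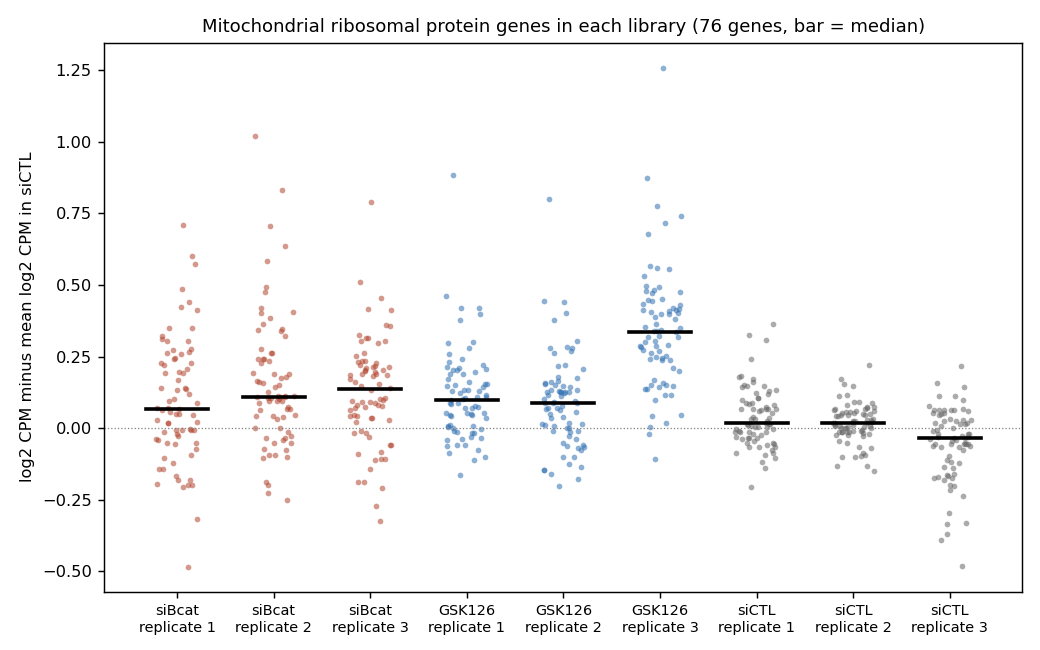
Log2 CPM of each of the 76 genes minus its mean in the 3 siCTL libraries, in each of the 9 libraries (points are genes, bars are medians over genes). The medians were 0.07 to 0.14 in siBcat, 0.10, 0.09 and 0.34 in GSK126 and -0.03 to 0.02 in siCTL, with GSK126 3 highest.

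Summed over the family, expression was 2165, 2248 and 2203 CPM in siBcat, 2167, 2137 and 2563 CPM in GSK126 and 2035, 2011 and 1924 CPM in siCTL. Each treated library lay above each siCTL library, and GSK126 3 lay well above the other treated ones. In bulk RNA, fewer cells of a kind and less RNA per cell cannot be told apart. In GSK126 3 the family's median deviation from the mean of replicates 1 and 2 was 0.25 on the log2 scale, with 74 of 76 genes above 0. The shorter genes of the family deviated by a median of 0.29 and the longer ones by 0.22. Over all genes tested, the same deviation had a median of 0.26 in the shortest of 10 equal bins of coding length and -0.34 in the longest. Of the family, 43 genes fell in the shortest bin and 17 in the next. A trend on coding length took up 21.4% of the variance of deviations in this library, against 0.0840 to 0.816% in the siBcat and siCTL libraries and 7.06 and 9.28% in GSK126 1 and 2, whose deviations are taken from a mean that holds the third library. Its part in the results was not tested beyond the values with and without it given with each comparison. A trend on GC content took up 8.66% of that variance in siCTL 3, the most of any library, against 0.467 to 4.05% in the others. Spread within groups was wider in GSK126, where the SD of a gene had a median of 10.8% of its mean, against 4.74% in siBcat and 5.48% in siCTL.

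**Figure D2:**
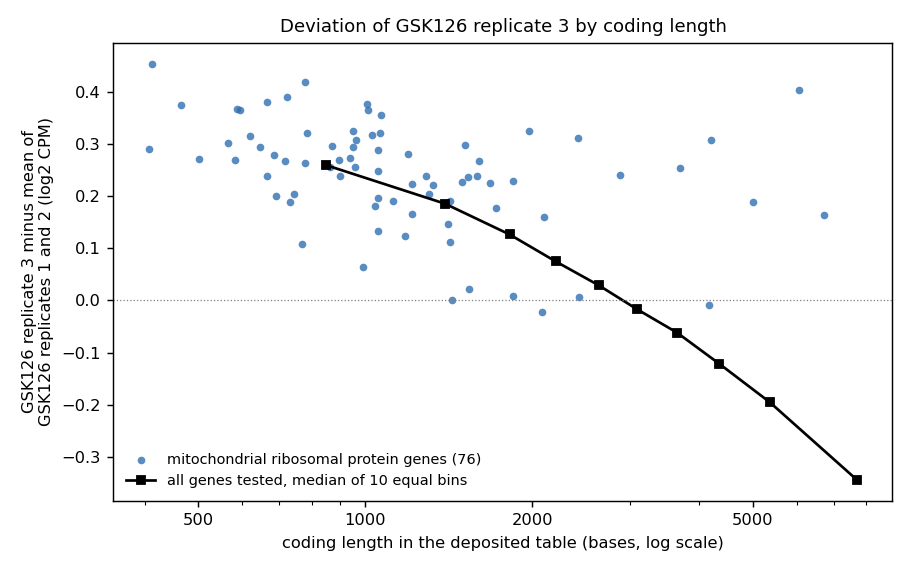
Deviation of GSK126 3 from the mean of GSK126 replicates 1 and 2 (log2 CPM) against listed coding length (bases, log axis), for the 76 genes (points) and as the median of 10 equal bins of all genes tested (squares and line). The bin medians go down from 0.26 to -0.34 with length, and 74 of the 76 points lie above 0.

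Depletion of beta-catenin was accompanied by higher levels of 17 of the 76 genes and lower levels of 2. A gene was called where the adjusted p of edgeR's quasi-likelihood test was under 0.05 (Benjamini-Hochberg over all genes tested). The 17 are 22.4% of the family, close to the 17.7% of all genes tested that were called higher, so this share does not set the family apart. The 2 called lower are 2.63% of the family, against 17.5% of all genes tested. The median log2 fold change was 0.10, against 0.00 over all genes tested, and 60 of the 76 values were above 0. All 3 siBcat libraries lay above all 3 siCTL libraries for 26 genes (34.2%, against 28% of all genes tested) and below them for 6 (7.89%, against 27.2%).

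The largest rise was that of Mrps6, a small subunit protein with a bacterial relative (chromosome 16, 92058336 to 92112227). It was at 44.3, 48.2 and 46.9 CPM in siBcat, against 27.8, 27.6 and 25.8 CPM in siCTL. The groups were far apart: siBcat was 1.72 times siCTL, a log2 fold change of 0.78 (SE 0.10, adjusted p = 8.26e-05). This gene shares its strand and its start region with Slc5a3, a myo-inositol transporter gene, whose RefSeq start is 14 bases away, and reads of the pair may have been assigned to either. Slc5a3 was at 55.6, 54.7 and 57.4 CPM in siBcat, against 29.8, 27.0 and 31.7 CPM in siCTL, and it rose by 0.92 (SE 0.08, adjusted p = 2.63e-06). Without Mrps6 the family's median was 0.10 in siBcat and 16 of 75 genes were called higher.

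Large subunit genes made up 10 of the 17 called higher, which is 20.4% of the 49 in that subunit, against 17.7% of all genes tested. Mrpl17, with a bacterial relative (chromosome 7, 105803782 to 105811087), was at 56.0, 63.1 and 56.1 CPM in siBcat, against 46.0, 44.0 and 36.7 CPM in siCTL. The lowest siBcat library stood above the highest siCTL library, and the log2 fold change was 0.47 (SE 0.09, adjusted p = 0.00130). Mrpl43, specific to mitochondria (chromosome 19, 45005014 to 45006442), was at 49.6, 49.1 and 45.7 CPM in siBcat, against 39.3, 39.1 and 33.0 CPM in siCTL, a rise of 0.38 (SE 0.08, adjusted p = 0.00233). For both genes siCTL 3 was the lowest of all libraries. Mrpl20, with a bacterial relative (chromosome 4, 155803618 to 155808829), was at 40.9, 40.8 and 39.9 CPM in siBcat, against 32.4, 30.1 and 33.9 CPM in siCTL, and rose by 0.34 (SE 0.07, adjusted p = 0.00344). Mrpl54, specific to mitochondria (chromosome 10, 81264722 to 81266926), was at 46.7, 50.2 and 42.1 CPM in siBcat, against 34.9, 34.1 and 24.4 CPM in siCTL. It rose by 0.58 (SE 0.15, adjusted p = 0.0118), with a wide spread in both groups.

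In the small subunit, Mrps2, with a bacterial relative (chromosome 2, 28468066 to 28471177), was at 38.4, 39.6 and 39.7 CPM in siBcat, against 30.9, 33.1 and 31.0 CPM in siCTL. Its libraries were tightly grouped, and it rose by 0.31 (SE 0.05, adjusted p = 0.000764). The small subunit gave 7 of the 17 genes called higher, which is 26.9% of its 26 genes, against 17.7% of all genes tested.

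**Figure D3:**
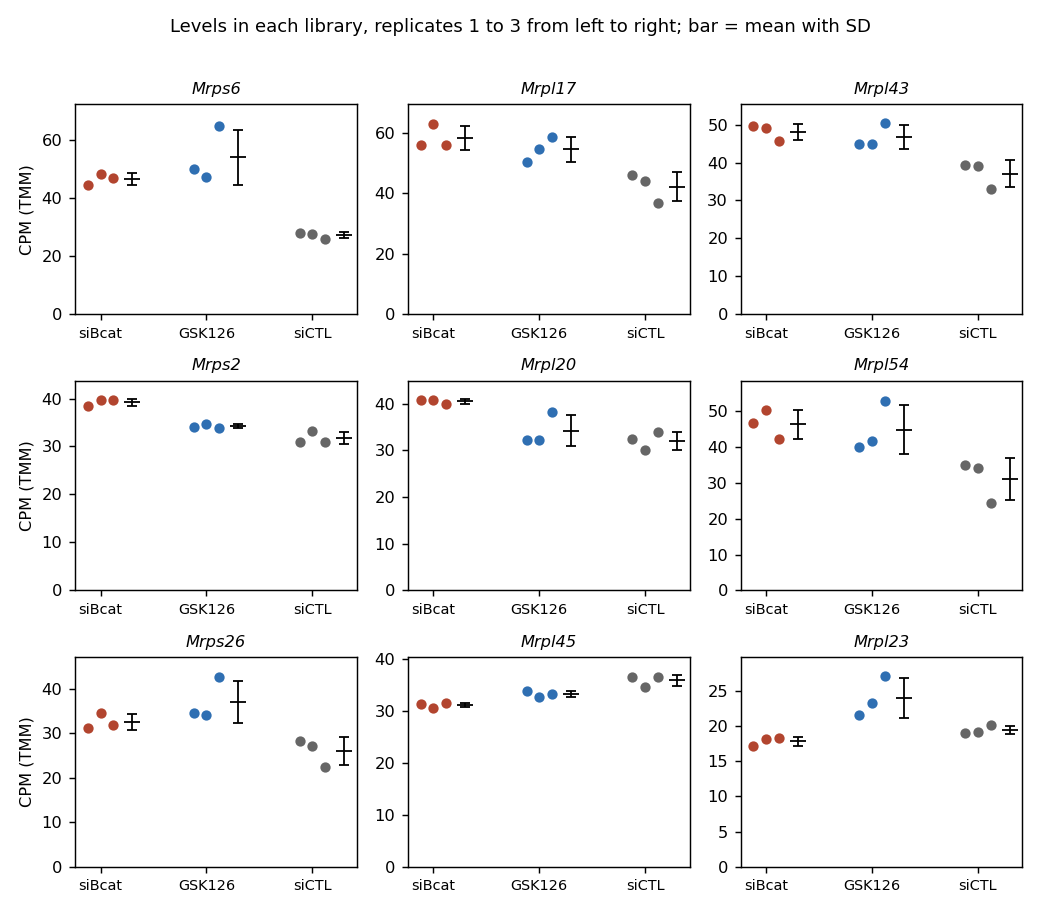
CPM after TMM scaling in each library for 9 genes, with siBcat, GSK126 and siCTL from left to right (points are libraries in replicate order, bars the mean with SD, n = 3). The siBcat libraries lie above all siCTL libraries in 7 of the panels, and below them for Mrpl45 and Mrpl23.

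The large subunit gene Mrpl45 (chromosome 11, 97315716 to 97329920), whose product sits at the exit of the peptide tunnel and takes part in attaching the ribosome to the inner membrane, went the other way. It was at 31.4, 30.7 and 31.6 CPM in siBcat, against 36.6, 34.7 and 36.7 CPM in siCTL, and fell by 0.20 on the log2 scale (SE 0.05, adjusted p = 0.00987). The second call lower was Mrpl47, a large subunit gene with a bacterial relative, at 4.68, 5.51 and 5.43 CPM in siBcat, against 6.88, 6.52 and 6.28 CPM in siCTL, lower by 0.33 on the log2 scale (log2 fold change -0.33, SE 0.12, adjusted p = 0.0432). Its call ended on leaving out siBcat 1 (0.136), 2 (0.0605) or 3 (0.0704), GSK126 1 (0.0523), or siCTL 1 (0.120), 2 (0.0831) or 3 (0.0594), with a range of 0.00391 to 0.136 across alternatives. Mrpl47 overlaps Actl6a and Ndufb5 on the opposite strand, as Mrpl43 does Twnk. In all, 23 of the 76 genes overlap a protein-coding gene on the opposite strand and 4 on the same strand, and since no source states whether counting used the strand, their values are less certain.

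Of the 19 calls in siBcat, 7 held with each of the 9 libraries left out, those of Mrps6, Mrpl17, Mrpl43, Mrpl20, Mrpl54, Mrps2 and Mrpl45, and 12 ended in at least 1 leave-out. Mrps34, which is specific to mitochondria and overlaps Nme3 on the same strand, had a log2 fold change of 0.35 and was not called without siBcat 2 (adjusted p = 0.0620, range 0.000293 to 0.0620 across alternatives). Mrps7 (0.24) was not called without siBcat 1 (0.0685) or siCTL 2 (0.0562), with a range of 0.000410 to 0.0685. Mrps26 (0.33) was not called without siBcat 2 (0.0948), siBcat 3 (0.0504) or siCTL 3 (0.0913), with a range of 0.000975 to 0.0948.

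Mrpl34, a large subunit gene with a bacterial relative, had the second largest fitted rise and a wide scatter, at 17.0, 23.2 and 16.3 CPM in siBcat, against 14.7, 11.6 and 8.70 CPM in siCTL. It rose by 0.69 (SE 0.20, adjusted p = 0.0196) and was not called without siBcat 2 (0.0644), GSK126 3 (0.0608) or siCTL 2 (0.0606), with a range of 0.000486 to 0.0939. Mrpl33 (0.30) was not called without siBcat 2 (0.0894), siCTL 1 (0.0745) or siCTL 2 (0.0693), with a range of 3.38e-05 to 0.0894. Mrps12 (0.41), a small subunit protein of the decoding site, was not called without siBcat 1 or 3 or siCTL 2 or 3, and Mrpl12 (0.29) not without any one siBcat library, siCTL 2 or siCTL 3. Mrpl10 (0.21), Mrpl15 (0.23) and Mrps23 (0.20) were not called without any one of the siBcat or siCTL libraries, the last pair also not without GSK126 2. Mrpl32 (0.27) was not called without any one siBcat library, GSK126 1 or 2, or siCTL 1 or 2. The highest adjusted p across alternatives was 0.0843 for Mrps12, 0.107 for Mrpl12, 0.144 for Mrpl10, 0.197 for Mrpl15, 0.151 for Mrps23 and 0.182 for Mrpl32.

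For leave-outs of siBcat and siCTL libraries no share of all genes is given, so their counts have no baseline. The number called higher was 10, 8 and 10 without siBcat 1, 2 and 3, and 8 without siCTL 2. Called in either direction were 15 genes without siCTL 1 and 13 without siCTL 3, against 19 with all libraries. GSK126 3 enters this comparison only by the filter, scaling and variance shared among groups. Without it, 27 were higher (35.5%, against 23.9% of all genes) and 3 lower (3.95%, against 23.3%). Each of the 19 calls except that of Mrpl34 was again made there, and the median was 0.10. With the length trend removed, 20 genes were higher (26.3%, against 23.3% of all genes tested) and 6 lower (7.89%, against 18.8%). The median was then 0.06, against 0.02 over all genes tested.

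Inhibition of Ezh2 with GSK126 was accompanied by higher levels of 17 of the 76 genes (22.4%, against 14.3% of all genes tested). None was called lower with edgeR, DESeq2 or limma-voom, nor had any an unadjusted p under 0.05 in that direction (0 genes), against 10.7% of all genes tested called lower. The median log2 fold change was 0.17, against 0.01 over all genes tested, with 69 values above 0. The groups did not overlap for 31 genes that were higher (40.8%, against 21.9% of all genes tested) and 1 that was lower (1.32%, against 20.2%). These counts rest in part on GSK126 3: without it 8 genes were called higher (10.5%, against 15.2% of all genes) and the median was 0.09. The share of the family called higher was then below that of all genes. The 8 were Mrps6, Mrps26, Mrpl43, Mrpl12, Mrpl17, Mrpl23, Mrpl28 and Mrps34, all of them among the 17. With the length trend removed from all libraries, 8 were higher (10.5%, against 13.2% of all genes tested) and 2 lower (2.63%, against 19.4%). The median was 0.03, against -0.04 over all genes tested. With the GC trend removed, 8 were higher (10.5%, against 12.2% of all genes tested) and 0 lower (0%, against 17.5%). The median was then 0.11, against -0.03 over all genes tested. Not every setting cut the count. With the length trend removed from GSK126 3 alone, 19 were higher (25.0%, against 17.0% of all genes tested) and 0 lower. The median was 0.10 there, against 0.01 over all genes tested. With libraries scaled by their size alone, 23 were higher (30.3%, against 16.9% of all genes tested) and 0 lower, at a median of 0.21, against 0.04.

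Mrps6 showed the largest difference here too, at 50.0, 47.1 and 64.8 CPM in GSK126, against 27.8, 27.6 and 25.8 CPM in siCTL. GSK126 was 1.99 times siCTL, a log2 fold change of 1.00 (SE 0.10, adjusted p = 2.16e-05), and the log2 fold change was 0.84 without GSK126 3 (adjusted p = 3.49e-10). Slc5a3 was at 76.0, 78.8 and 64.3 CPM in GSK126, against 29.8, 27.0 and 31.7 CPM in siCTL, a log2 fold change of 1.31 (SE 0.08, adjusted p = 3.93e-07). In GSK126 3 Mrps6 was highest and Slc5a3 lowest of the GSK126 libraries.

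Mrps26, a small subunit gene specific to mitochondria (chromosome 2, 130563757 to 130565394), was at 34.6, 34.2 and 42.5 CPM in GSK126, against 28.3, 27.1 and 22.4 CPM in siCTL. It rose by 0.52 (SE 0.10, adjusted p = 0.00276), and by 0.40 without GSK126 3 (adjusted p = 0.000877). Mrpl43 was at 44.9, 44.9 and 50.4 CPM in GSK126, against 39.3, 39.1 and 33.0 CPM in siCTL, and rose by 0.33 (SE 0.08, adjusted p = 0.00759). Mrpl17 was at 50.4, 54.6 and 58.8 CPM in GSK126, against 46.0, 44.0 and 36.7 CPM in siCTL, and rose by 0.37 (SE 0.09, adjusted p = 0.00907). For each of these genes all GSK126 libraries lay above all siCTL libraries. These 4 calls held in all 9 leave-outs. With the length trend removed that of Mrpl17 ended (adjusted p = 0.0554, range 0.00131 to 0.110 across alternatives), at a log2 fold change of 0.44, which is larger than the 0.37 without that step.

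**Figure D4:**
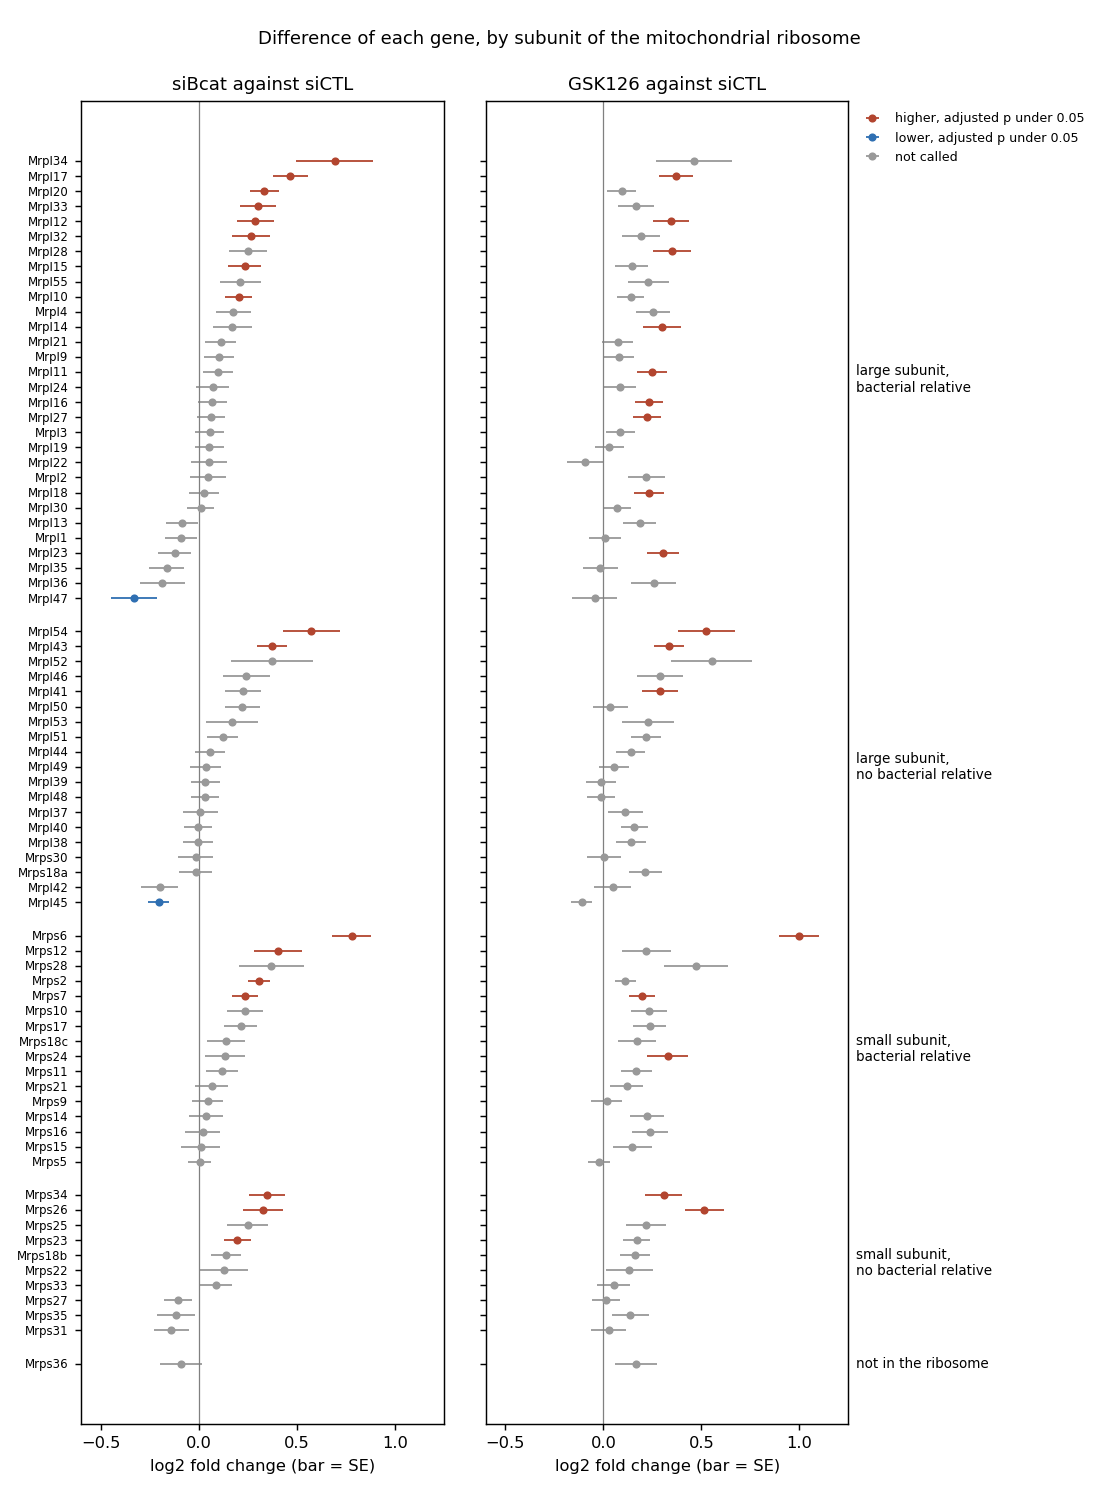
Log2 fold change of each of the 76 genes with its SE (bar), for siBcat against siCTL (left) and GSK126 against siCTL (right), grouped by subunit and by a bacterial relative. Of the 76, 17 are called higher and 2 lower in siBcat, and 17 higher in GSK126, where Mrps6 reaches 1.00.

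The other 13 calls in GSK126 each ended in at least 1 leave-out. Mrpl28, a large subunit gene with a bacterial relative, had a log2 fold change of 0.35 and was not called without siCTL 3 (adjusted p = 0.0849, range 0.00628 to 0.0849 across alternatives). Mrpl54 was at 40.0, 41.7 and 52.7 CPM in GSK126, against 34.9, 34.1 and 24.4 CPM in siCTL, where replicate 3 was lowest. It rose by 0.53 (SE 0.15, adjusted p = 0.0253) and was not called without GSK126 3 (0.145), with a range of 0.00118 to 0.145. Mrpl12 (0.34) was not called without siCTL 2 (0.0664) or siCTL 3 (0.0762), with a range of 0.00499 to 0.0762. Mrpl23 (0.30) was not called without siCTL 1 (0.0594) or siCTL 2 (0.0744), with a range of 0.00890 to 0.0973. Mrps34 (0.31) was not called without siBcat 1 (0.0524), GSK126 1 (0.0587), siCTL 1 (0.0521), siCTL 2 (0.0728) or siCTL 3 (0.116), with a range of 0.00914 to 0.246.

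The remaining 8, at log2 fold changes of 0.20 to 0.33, were not called without GSK126 3, at an adjusted p of 0.0622 to 0.120. Mrpl41, Mrps24 and Mrpl14 also ended without any one siBcat library, siCTL 2 or siCTL 3, and Mrpl11 without any one siBcat library, siCTL 1 or siCTL 3. Mrpl16 ended without siBcat 1 or 3, GSK126 1, or siCTL 2 or 3, and Mrpl27 without siBcat 1 or 2, GSK126 1 or any one siCTL library. Mrps7 and Mrpl18 ended in 8 of the 9 leave-outs each, being called only without GSK126 1 for Mrps7 and only without GSK126 2 for Mrpl18. Across alternatives the highest adjusted p of these 8 was between 0.213 and 0.620. The number called higher was 8, 10 and 10 without siBcat 1, 2 and 3, 7 without siCTL 2 and 6 without siCTL 3. It was 15 without GSK126 1, 22 without GSK126 2 and 15 without siCTL 1. No share of all genes is given for these leave-outs.

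By structural class, GSK126 libraries were called higher for 9 of 30 large subunit genes with a bacterial relative, 3 of 19 large subunit genes without, 3 of 16 small subunit genes with a relative and 2 of 10 without (30.0, 15.8, 18.8 and 20.0%, against 14.3% of all genes tested). In siBcat the same classes had 8, 2, 4 and 3 genes higher (26.7, 10.5, 25.0 and 30.0%, against 17.7%). The class medians lay between 0.04 and 0.14 in siBcat and between 0.14 and 0.21 in GSK126. No class was tested against another.

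Some members were described for their place in the ribosome, whatever their values. The stalk that engages elongation factors is formed by the products of Mrpl12 and Mrpl10, next to that of Mrpl11. Mrpl12 was at 50.2, 48.7 and 50.5 CPM in siBcat, 48.0, 47.4 and 59.8 CPM in GSK126, and 45.0, 40.3 and 37.0 CPM in siCTL. Mrpl10 was at 57.2, 54.0 and 54.4 CPM in siBcat, 50.7, 49.2 and 58.4 CPM in GSK126, and 49.0, 48.8 and 45.8 CPM in siCTL. Both had all treated libraries above siCTL, and GSK126 differed from siCTL by 0.14 for Mrpl10 (SE 0.07, adjusted p = 0.156). Mrpl11 was at 26.4, 27.5 and 28.0 CPM in siBcat, 29.3, 27.8 and 33.7 CPM in GSK126, and 24.9, 27.1 and 24.5 CPM in siCTL, so that siBcat overlapped siCTL (0.10, SE 0.08, adjusted p = 0.354).

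The 3 relatives of bacterial protein S18 are placed apart in the ribosome. Mrps18a, in the large subunit, was at 32.3, 31.2 and 32.9 CPM in siBcat, 35.3, 35.6 and 42.3 CPM in GSK126, and 34.8, 33.6 and 29.0 CPM in siCTL. The others are in the small subunit: Mrps18b was at 35.5, 39.5 and 40.5 CPM in siBcat, 36.7, 36.7 and 43.6 CPM in GSK126, and 33.9, 35.4 and 35.5 CPM in siCTL. Mrps18c was at 18.2, 19.3 and 20.0 CPM in siBcat, 17.4, 19.3 and 22.1 CPM in GSK126, and 17.2, 15.8 and 19.2 CPM in siCTL. The differences from siCTL missed the threshold for all 3, at -0.02, 0.14 and 0.14 in siBcat (SE 0.08, 0.08 and 0.10) and 0.21, 0.16 and 0.17 in GSK126 (SE 0.08, 0.08 and 0.10), for Mrps18a, Mrps18b and Mrps18c in that order. Mrps30, of the large subunit, was at 15.3, 18.1 and 16.8 CPM in siBcat, 16.7, 15.3 and 18.9 CPM in GSK126, and 16.6, 17.1 and 17.1 CPM in siCTL, with overlapping groups (-0.02, SE 0.09, in siBcat and 0.00, SE 0.09, in GSK126, both turning sign with some alternatives). Mrps36, outside the ribosome, was at 12.8, 15.8 and 12.6 CPM in siBcat, 16.2, 14.5 and 18.5 CPM in GSK126, and 15.3, 14.7 and 13.9 CPM in siCTL, and was not called (-0.09, SE 0.11, in siBcat and 0.16, SE 0.11, in GSK126).

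Set against each other, siBcat and GSK126 differed for 8 genes, 2 higher in siBcat (2.63%, against 19.3% of all genes tested) and 6 lower (7.89%, against 21.9%). The median of siBcat minus GSK126 was -0.05, against -0.01 over all genes tested, and without GSK126 3 it was 0.05, against -0.01 over all genes. With the length trend or a trend on GC content removed the family's median was 0.03 and 0.02, against 0.05 over all genes in each case. In both settings the sign turned with all genes and the family's median stayed below theirs. It lay above theirs without GSK126 3 and with the length trend removed from GSK126 3 alone (0.0075, against -0.017). The groups did not overlap for 3 genes higher in siBcat (3.95%, against 25.3% of all genes tested) and 14 lower (18.4%, against 27.2%). Without GSK126 3 there were 7 higher (9.21%, against 22.9% of all genes) and 3 lower (3.95%, against 24.3%). With the length trend removed there were 8 higher (10.5%, against 30.1%) and 7 lower (9.21%, against 19.8%). The number lower was also 13 without GSK126 2, 2 without siBcat 1 and 3 without siBcat 3, siCTL 1 or siCTL 2, and the number higher was 1 without GSK126 1, GSK126 2, siBcat 1 or siBcat 2. For these leave-outs too, no share of all genes is given. Mrpl23, whose product lies at the exit of the peptide tunnel (chromosome 7, 142533117 to 142540742), was at 17.1, 18.2 and 18.2 CPM in siBcat, against 21.6, 23.3 and 27.0 CPM in GSK126. All siBcat libraries lay below all GSK126 libraries, with a log2 fold change of -0.43 (SE 0.08, adjusted p = 0.00127). Mrpl36, another large subunit gene with a bacterial relative (chromosome 13, 73331009 to 73332178), was at 15.6, 17.2 and 14.1 CPM in siBcat, against 20.8, 19.3 and 23.6 CPM in GSK126 (-0.44, SE 0.11, adjusted p = 0.00777). Neither gene differed from siCTL past the threshold in siBcat, at -0.12 (SE 0.08, adjusted p = 0.286) for Mrpl23 and -0.19 (SE 0.12, adjusted p = 0.237) for Mrpl36. With the length trend removed both were among the 6 called lower in siBcat against siCTL, at -0.24 (adjusted p = 0.00836) for Mrpl23 and -0.25 (adjusted p = 0.0297) for Mrpl36. Mrps2 was higher in siBcat, by 0.20 (SE 0.05, adjusted p = 0.0109), at 38.4, 39.6 and 39.7 CPM, against 34.2, 34.7 and 33.9 CPM in GSK126, a call that ended when libraries were scaled by their size alone (0.0857, range 0.000269 to 0.0857 across alternatives).

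Those 3 calls held in all 9 leave-outs and the other 5 did not. Mrpl20, higher by 0.24 in siBcat, was not called without siBcat 1 (0.0586), siBcat 2 (0.0544), GSK126 1 (0.0694) or GSK126 2 (0.0634), with a range of 9.08e-05 to 0.112. Mrpl13 (-0.27) was not called without siBcat 1 (0.0869), with a range of 0.00315 to 0.0869. Mrps18a (-0.23) and Mrps35 (-0.25) ended without any one siBcat library, GSK126 3, siCTL 1 or siCTL 2, and Mrps35 also without siCTL 3. Mrpl18 (-0.21) was called in 1 leave-out, that of GSK126 2. Across alternatives their highest adjusted p was 0.254 for Mrps18a, 0.268 for Mrps35 and 0.163 for Mrpl18.

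**Figure D5:**
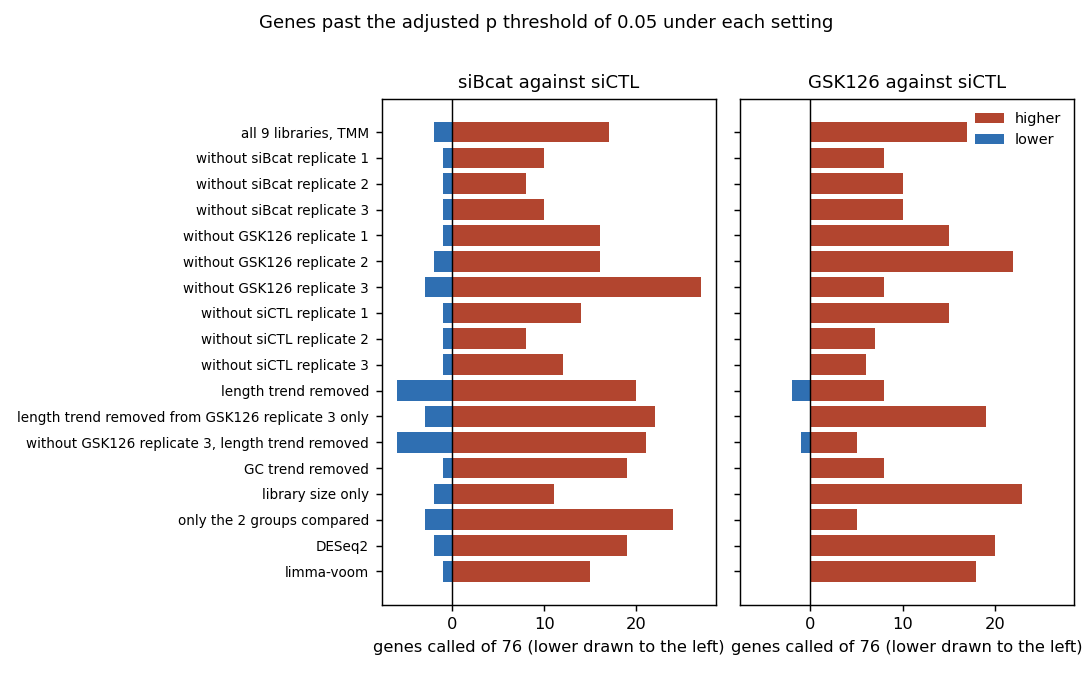
Number of the 76 genes called higher (to the right) and lower (to the left) at an adjusted p under 0.05 in siBcat (left panel) and GSK126 (right panel) against siCTL, for all 9 libraries and under each setting named. Counts higher run from 8 to 27 in siBcat and from 5 to 23 in GSK126. The share of all genes called higher moved as well. In siBcat it was 17.7% with all libraries and 23.9% without GSK126 3, where 27 were counted. In GSK126 it was 14.3% with all libraries and 16.9% with library size only, where 23 were counted.

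The counts in the lists that follow stand beside 17.7% of all genes tested called higher and 17.5% lower in siBcat. For GSK126 the shares were 14.3 and 10.7%. Beyond the symbol rule, 7 further proteins of the mitochondrial ribosome have other names. In siBcat 3 of them were higher: Aurkaip1 by 0.45 (SE 0.08, adjusted p = 0.000788), Ptcd3 by 0.22 (SE 0.05, adjusted p = 0.00663) and Dap3 by 0.19 (adjusted p = 0.0307), all of the small subunit. In GSK126 only Aurkaip1 was called, at 42.9, 43.8 and 51.3 CPM, against 38.1, 40.2 and 34.2 CPM in siCTL (0.29, SE 0.08, adjusted p = 0.0176). Dap3 was not called without siBcat 1 (0.116), siBcat 2 (0.101), siCTL 1 (0.0873), siCTL 2 (0.0723) or siCTL 3 (0.0757), with a range of 0.000219 to 0.116 across alternatives. In GSK126, Aurkaip1 was not called without siCTL 3 (0.0798), with a range of 0.00656 to 0.0889.

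Of 12 mitochondrial translation factors, 1 was higher in siBcat: Gfm2, which helps release ribosomes after translation, at 17.3, 14.8 and 15.5 CPM in siBcat, against 11.0, 12.3 and 12.5 CPM in siCTL (0.41, SE 0.09, adjusted p = 0.00266). In GSK126 none of the 12 was called with edgeR, DESeq2 or limma-voom, and 0 had an unadjusted p under 0.05. Among 23 genes for assembly of this ribosome and processing of its RNA, siBcat had 1 higher and 2 lower. The higher one was Noa1, a GTPase needed for assembly of the small subunit, at 16.4, 19.3 and 18.3 CPM in siBcat, against 13.0, 12.3 and 12.3 CPM in siCTL (0.52, SE 0.08, adjusted p = 0.000219). The RNA helicase gene Dhx30 and the rRNA chaperone gene Eral1 fell by 0.23 and 0.25. The call of Dhx30 ended without siBcat 2 (0.0663) or siCTL 1 (0.0583), with a range of 0.000487 to 0.0663, and that of Eral1 without siBcat 3 (0.0534) or siCTL 3 (0.0541), with a range of 0.00474 to 0.0541.

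In GSK126, 2 of these 23 were higher. Tfb1m, which methylates the small subunit RNA, was at 3.78, 3.58 and 3.57 CPM in GSK126, against 2.44, 2.20 and 1.78 CPM in siCTL (0.77, SE 0.16, adjusted p = 0.00341). The libraries of the groups were clear of each other, and the call held in every leave-out. Ftsj2, which methylates the large subunit RNA, was higher by 0.36 (adjusted p = 0.0329). Its call ended without siBcat 2 (0.0505), GSK126 1 (0.0688), GSK126 3 (0.0583), siCTL 2 (0.0531) or siCTL 3 (0.128), with a range of 0.0207 to 0.135. Of 7 genes for mitochondrial transcription and RNA handling, siBcat had 1 higher, the transcription factor gene Tfb2m (0.23, adjusted p = 0.0262). Its call ended without siBcat 2 (0.104), siBcat 3 (0.0962), siCTL 1 (0.110) or siCTL 2 (0.141), with a range of 0.00326 to 0.141. In GSK126 none of the 7 was called with edgeR, DESeq2 or limma-voom, and 1 had an unadjusted p under 0.05, in the lower direction.

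Nuclear regulators of mitochondrial genes, 10 in number, went both ways in siBcat, with 2 higher and 2 lower. In GSK126, 2 were higher and 0 lower with edgeR, while DESeq2 called 1 lower. Gabpb2, a partner of the ETS protein GABP alpha, was at 33.0, 33.9 and 32.3 CPM in siBcat, against 66.1, 65.6 and 67.2 CPM in siCTL, and fell by 1.00 on the log2 scale (SE 0.08, adjusted p = 1.39e-06). Myc, a transcription factor that acts on ribosome genes, was at 37.6, 36.4 and 37.4 CPM in siBcat, 26.9, 28.3 and 31.9 CPM in GSK126, and 24.8, 23.9 and 21.0 CPM in siCTL. It rose by 0.68 in siBcat (SE 0.08, adjusted p = 2.76e-05) and by 0.32 in GSK126 (SE 0.08, adjusted p = 0.00998). Gabpa, the gene of GABP alpha itself, rose by 0.23 in siBcat (adjusted p = 0.0186), and its call ended without siBcat 2 (0.0582), siBcat 3 (0.0896), siCTL 1 (0.0621) or siCTL 2 (0.0857), with a range of 2.62e-06 to 0.0896. Nrf1, the gene of NRF-1, had a log2 fold change of -0.18 in siBcat, at an adjusted p of 0.0490 that passed the threshold in 2 of the 9 leave-outs, those of GSK126 3 and siCTL 2, and ranged from 0.00978 to 0.191 across alternatives. The coactivator gene Ppargc1b was higher by 0.77 in GSK126 (adjusted p = 0.0198) at 3.89, 4.09 and 2.95 CPM, against 1.76, 2.73 and 1.91 CPM in siCTL. Its call ended without GSK126 1 (0.0581), GSK126 2 (0.0558), siCTL 1 (0.0819) or siCTL 3 (0.0797), with a range of 0.00207 to 0.0819.

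For comparison, the ribosome of the cytosol and the respiratory chain were read in the same fits. Of 83 cytosolic ribosomal protein genes tested, 33 were called higher in siBcat (39.8%, against 17.7% of all genes tested) and 2 in GSK126 (2.41%, against 14.3%), with medians of 0.20 and 0.04. Without GSK126 3, 65 were higher in siBcat (78.3%, against 23.9% of all genes) at a median of 0.20, and the GSK126 counts were 2 higher and 24 lower (28.9%, against 13.6%), with a median of -0.07. The respiratory chain and ATP synthase had 77 genes tested, of which 13 passed the threshold upward (16.9%) and 1 downward in siBcat, and 36 were called higher in GSK126 (46.8%), with medians of 0.11 and 0.23. Without that library 30 of 79 were higher (38.0%) and 4 lower in siBcat, with a median of 0.11, and 29 were higher (36.7%, against 15.2% of all genes) and 2 lower in GSK126, with a median of 0.12. With the length trend removed, 28 cytosolic genes were higher in siBcat (33.7%, against 23.3% of all genes tested) and 1 lower, at a median of 0.09. In GSK126, 2 were higher and 29 lower (34.9%, against 19.4%), at -0.09. Respiratory genes then had 13 higher (16.9%) and 7 lower in siBcat, at 0.02, against 0.02 over all genes tested. In GSK126, 23 were higher (29.9%, against 13.2%) and 2 lower, at 0.10, against -0.04 over all genes tested. These sets also deviated upward in GSK126 3, by medians of 0.30 for each, against 0.25 for the mitochondrial ribosome. Both treatments share the siCTL libraries, and no difference between the gene sets was tested.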

How the data were processed

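RNA from 9 cultures was sequenced (Illumina mRNA kit, per the labels' protocols). TopHat2 2.0.6, HTSeq, bcl2fastq and the mm10 build are named in the submitters' processing notes; the sources used here state neither settings and annotation nor the use of strand. The authors deposited raw read counts per gene, of which all values are even (0 odd), together with their RPKM values and a coding length in bases; the RPKM were not used. A further 6 per-sample columns were not used. Some 26 names are shared by several entries.

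Counts were tested with edgeR 4.0.16 in R 4.3.3 (filterByExpr with a minimum count of 10 and a total of 15, TMM scaling, robust quasi-likelihood fit on all 9 libraries, 6 residual degrees of freedom). P-values were Benjamini-Hochberg adjusted over the 13240 genes tested, with 10118 entries left out by the filter. Replicates varied with a common biological coefficient of 8.12%. CPM values use TMM-scaled library sizes, and log2 values a prior count of 2. The SE of a log2 fold change was derived from the test, as its absolute value divided by the square root of the quasi-likelihood F statistic. The scripts were tested on simulated data.

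The alternatives were DESeq2 1.42.0, limma-voom (limma 3.58.1), other scalings and filters, halved counts, a replicate block, only the 2 groups compared, each library left out in turn, and trends on coding length or GC content removed by loess (span 0.5; a GC share was known for 90.4% of genes tested and all 76 members).

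The members, the gene lists and the tests were chosen with earlier results of these data known. Named were up to 10 genes called higher and 10 called lower per treatment by adjusted p, up to 5 and 5 between treatments, the 5 highest and 5 lowest levels per kilobase, 8 genes of set structural roles, and up to 3 called genes per list and treatment. The other called members, and the other called stromal markers, were named after their values were seen, to account for the whole count. Overlaps of genes come from GENCODE gene spans on mm10.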

Additional observations from a re-analysis of the deposited data

How the results depend on the processing

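Counts of calls, out of 76, are given as higher and lower in siBcat against siCTL (17 and 2 with all libraries), in GSK126 against siCTL (17 and 0) and in siBcat against GSK126 (2 and 6). Leaving out 1 library in turn gave 8 to 27 and 1 to 3, 6 to 22 and 0, and 1 to 7 and 2 to 13. The medians ranged over these leave-outs from 0.07 to 0.11 in siBcat, from 0.09 to 0.22 in GSK126 and from -0.093 to 0.046 between them. Removing the GC trend gave 1 lower in siBcat (1.32%, against 17.6% of all genes) and 8 higher in GSK126 (10.5%, against 12.2%). Between treatments it gave 4 and 3 (5.26 and 3.95%, against 26.7 and 18.5% of all genes). Removing the length trend gave 6 lower in siBcat, 8 and 2 in GSK126 (median 0.034) and 8 higher between treatments. Without GSK126 3 and without the length trend, 6 were lower in siBcat (7.89%, against 21% of all genes). In GSK126, 5 and 1 were called there (6.58 and 1.32%, against 12.3 and 20.9%), at a median of 0.025, against -0.051 over all genes. Between treatments, 13 and 3 were called (17.1 and 3.95%, against 31 and 19.1%), at a median of 0.051, against 0.061. Removing the length trend from GSK126 3 alone gave 6 higher between treatments (7.89%, against 22% of all genes). Scaling by library size alone gave 11 higher in siBcat (14.5%, against 14.7% of all genes tested). Between treatments it gave 0 higher and 20 lower (0 and 26.3%, against 14.2 and 28.4% of all genes tested). Limma-voom gave 1 lower in siBcat and 3 lower between treatments. Upper-quartile scaling gave 1 lower in siBcat and 1 higher between treatments. Fitting only the 2 groups compared gave 5 higher in GSK126 and 2 lower between treatments. With the replicate block the counts were 15 and 1, 12 and 0, and 2 and 5. With the replicate block and the length trend removed, 6 were lower in siBcat, 9 and 2 were called in GSK126 (median 0.034) and 8 were higher between treatments. No share of all genes is given for limma-voom, upper-quartile scaling, the 2 groups alone or the replicate block. The same holds for leave-outs other than that of GSK126 3. Moves of these counts can therefore not be called particular to the family. Same-numbered libraries deviated from their group means with correlations of -0.031 to 0.069, so the numbers were not taken to pair samples. Removing the length trend left 49 genes above 0 in siBcat and 50 in GSK126, against 60 and 69 with all libraries as counted. Of all 13240 genes tested, 7018 were then above 0 in siBcat and 5491 in GSK126, against 6670 and 6770 as counted. Among the named genes followed, the directions that turned were of differences not called with all libraries. In siBcat, Mrps18a was at 0.0015 and Mrps30 at 0.014 with the GC trend removed. Over leave-outs, Mrps18a ranged from -0.090 to 0.036 and Mrps30 from -0.076 to 0.033. In GSK126, Mrpl10 was at -0.015 without GSK126 3 and the length trend. There Mrps30 was at -0.0079 with DESeq2, -0.0081 with its size factors, -0.0072 with no filter, -0.012 with only the 2 groups compared, -0.13 with the length trend removed, -0.041 with it removed from GSK126 3 alone, -0.12 with the replicate block and the length trend removed, and -0.16 without GSK126 3 and the length trend. Its leave-outs ranged from -0.081 to 0.066. Of 1032 values under alternatives, 894 kept direction and side of the threshold, 116 lost the call, 2 gained it and 20 turned. These values cover the genes named by the set rule, whether called or not. They leave out the other called members, named after their values were seen. Those lost their calls in 3 (Mrps26 in siBcat) to 18 (Mrps7 in GSK126 and Mrpl15 in siBcat) of 24 alternatives each. The cause of these moves was not tested. With 3 cultures a group, differences within the spread given above could not be told from it.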
